A study of Saccharomyces cerevisiae with 4 samples.

Results

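Deletions of the mitochondrial protein import machinery were followed in a tag-array screen of budding yeast (Saccharomyces cerevisiae) for deletions that interact with CDC102. The members were the array spots whose platform gene symbol or synonym named 1 of 35 listed import genes. Of these genes, 33 had spots and a value on all 4 arrays, among 5288 such strains of 5325 in all. TIM8 and TIM9, which encode small chaperones of the intermembrane space, had no named spot among those used here. The measured members fall into 8 complexes or pathways, from TOM at the outer membrane to the processing peptidase of the matrix. By what is known of the deletion collection, 18 of them are essential genes and 12 are not, while for TOM20, TOM22 and TIM54 the need for the gene depends on the strain background.

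Most mitochondrial proteins are made in the cytosol and enter through the TOM complex, whose channel is Tom40. Proteins with a presequence then pass the TIM23 complex of the inner membrane, are pulled in by the PAM motor and lose the presequence to the peptidase Mas1-Mas2, whereas carrier proteins are handed by the small TIM chaperones to the TIM22 complex. The SAM complex inserts barrel proteins into the outer membrane, and the MIA pathway, Mia40 and Erv1, folds small cysteine-rich proteins, among them the small TIM chaperones, in the intermembrane space.

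Per the labels, the starting material was 1 pool of 5896 heterozygous diploid deletion strains that can be turned into haploids. Every group carried a natMX disruption of chromosomal CDC102, a synonym of PSF2, whose product belongs to the GINS complex of DNA replication. The groups were pools with the cdc102-1 allele on a centromeric URA3 plasmid at 30 and at 28 degree, and pools with wild-type CDC102 on such a plasmid at 30 and at 28 degree, with 1 array for each of these 4 combinations. Spores were grown for 2 days on plates lacking uracil with the drug Nat, which leaves double mutants (Cy3), and on plates without it, which leave single and double mutants (Cy5). Since the text on each wild-type sample at 1 point calls the sporulated pool cdc102-1, the titles decided the plasmid of each array. Haploid cells that lack an essential gene do not form colonies, so for the 18 essential members a ratio does not compare living deletion haploids, and the brightness of their tags was not analysed here.

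A value is a deposited log2 ratio of the dyes, averaged over the spots of a strain and given relative to the median strain of its array. The labels do not state the numerator. Cy5 over Cy3 is likely, since the Cy5 sample is the labels' source 1, and under that reading a lower ratio means that the Nat plates contributed relatively more of the tag. With 1 array per combination the number of arrays limits the precision. Each p-value rests on how far the plasmid difference changed between the temperatures and on a spread borrowed across strains. Part of that scatter may be technical, and a true interaction of plasmid and temperature could not be told from it. The SD over all strains was 1.03 and 0.73 on the cdc102-1 arrays at 30 and 28 degree, against 0.77 and 0.65 on the CDC102 arrays. The cdc102-1 array at 30 degree, the widest of these, also had the most named spots without a value, 727, against 16 to 399 on the other arrays. The strain deleted for PSF2 itself lay near the median strain, at 0.04 and -0.14 with cdc102-1 at 30 and 28 degree, and at 0.31 and 0.36 with CDC102.

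Deletions of essential import genes had lower ratios than the median strain averaged over the arrays, whereas most deletions of non-essential import genes did not. The mean ratio over the 4 arrays had a median of -1.06 over the 18 essential members and of 0.16 over the 12 non-essential members, against -0.00 over all strains. Without centring the non-essential median was -0.049, on a scale where the array medians over strains were -0.27 to -0.17. A list of 29 measured essential genes outside mitochondria (chaperonin, RNA polymerase II, proteasome and transport factors) had a median of -0.53. In limma's test of the mean ratio against the median strain, with Benjamini-Hochberg adjustment over 5288 strains, 13 members were lower and 0 were higher. Over all strains 20.2% passed, 15.7% lower and 4.48% higher. At an unadjusted p under 0.05, 20 members were lower and 0 higher, against 41.3% of all strains, 26.1% of them lower and 15.2% higher as shares of all. The 13 comprised 11 essential genes, TOM22 and the non-essential SAM37. The count of 13 did not hold when either CDC102 array was left out. Such a fit keeps only 1 CDC102 array and drops the temperature term, so that its own scatter comes from the cdc102-1 arrays alone. The part of each change in the loss of calls was not tested. With any 1 array left out, the median mean ratio of the essential members ranged from -1.14 to -0.76. Of the essential comparison list, 9 of 29 were lower and 0 were higher by the same test.

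**Figure D1:**
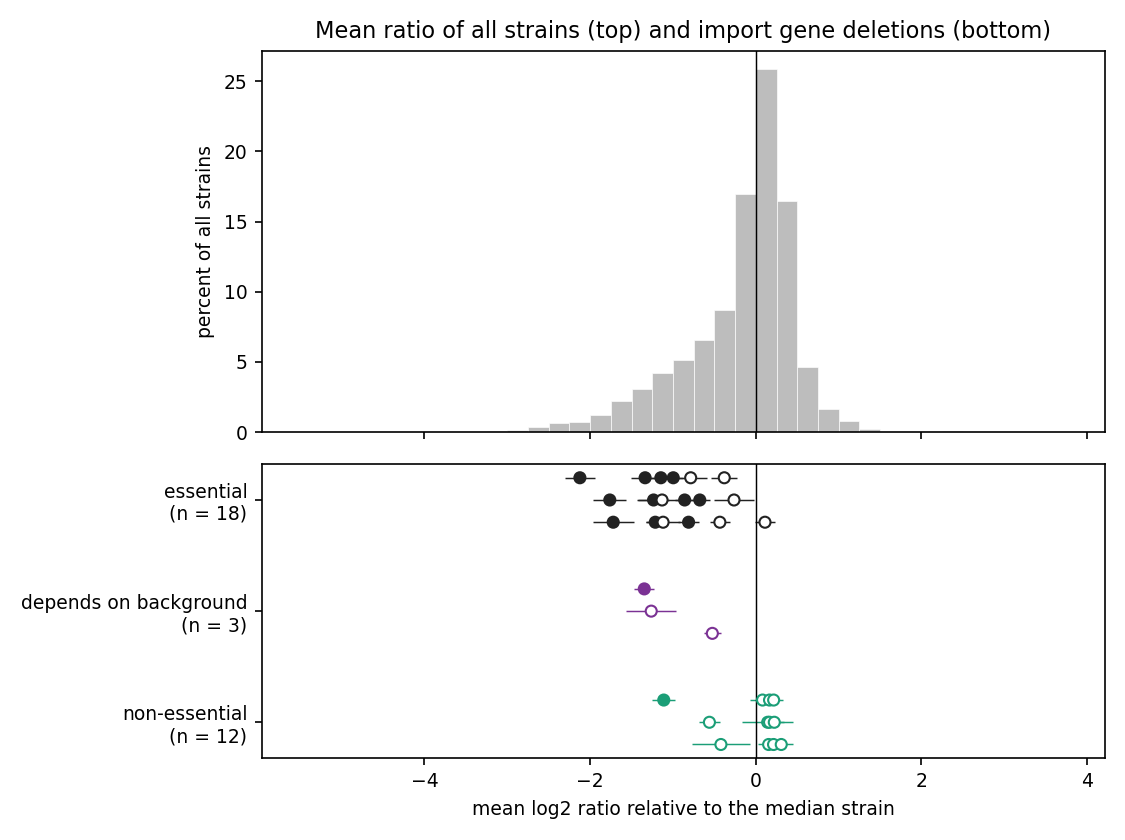
Mean log2 ratio over the 4 arrays relative to the median strain, as a histogram of all 5288 strains (top, percent of strains) and for each of the 33 import gene deletions by essentiality (bottom). Points are strains, bars are the standard error of the limma fit, and filled points passed the adjusted test; 17 of 18 essential members lie below 0, against 3 of 12 non-essential ones.

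Of the TOM complex, the strains deleted for the channel and for its central receptor lay lowest. The TOM40 strain had ratios of -3.57 and -2.20 with cdc102-1 at 30 and 28 degree, and of -1.50 and -1.23 with CDC102, all below the median strain. Its mean ratio was -2.12 ± 0.18 (SE of the fit over 4 arrays, limma adjusted p 0.023), the lowest among the import genes. TOM22, which encodes the receptor that also holds the complex together, had -2.16 and -1.59 with cdc102-1 at 30 and 28 degree, and -0.85 and -0.79 with CDC102. Its mean ratio was -1.35 ± 0.12 (limma adjusted p 0.023). In TOM40 and in TOM22 both cdc102-1 values lay below both CDC102 values. Of all strains, 27.6% were lower with cdc102-1 at both temperatures, and the share with such separate pairs was not counted. TOM20, the presequence receptor, and TOM5, a small subunit, stood at mean ratios of -0.52 ± 0.10 and -0.56 ± 0.13 and did not pass (adjusted p 0.052 and 0.069 in limma). The remaining deletions of the complex, of the receptor genes TOM70 and TOM71 and of the small subunit genes TOM6 and TOM7, had mean ratios between 0.17 and 0.31 and did not pass. TOM6, TOM7 and TOM70 were above the median strain on every array, as were TIM18 of the TIM22 complex and 26.7% of all strains.

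Of the TIM23 complex, only the TIM17 strain passed the test of the mean ratio. TIM17, which encodes a core subunit, had -2.96 and -1.46 with cdc102-1 at 30 and 28 degree, and -1.43 and -1.20 with CDC102 (mean ratio -1.76 ± 0.20, limma adjusted p 0.027). The cdc102-1 array at 30 degree stood well below the others, which were close together. TIM50, which encodes the receptor that takes over presequences from TOM, had -2.79 and -0.44 with cdc102-1 at 30 and 28 degree, and -0.77 and -0.53 with CDC102, and its mean ratio of -1.13 ± 0.31 did not pass. TIM23 encodes the channel-forming partner of Tim17. Its strain had -0.91 and 0.54 with cdc102-1 at 30 and 28 degree, and -2.74 and -0.03 with CDC102, so that both arrays at 30 degree were lower than both at 28 degree. The non-essential subunit genes TIM21 and MGR2 had mean ratios of 0.15 and 0.17.

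The deletions of the PAM motor, which drives translocation with the Hsp70 Ssc1, had low ratios in part. MGE1, the nucleotide exchange factor of Ssc1, had -1.04 and -2.15 with cdc102-1 at 30 and 28 degree, and -2.11 and -1.59 with CDC102 (mean ratio -1.72 ± 0.25, limma adjusted p 0.035). PAM16, which encodes the partner of the J-protein Pam18, had a mean ratio of -0.68 ± 0.12 (limma adjusted p 0.047). The PAM16 value rests on the first tag, with a mean of -1.49 there and of 0.052 in the second. PAM18 itself had a mean ratio of -1.12 ± 0.21 and lay at the threshold (adjusted p 0.0501 in limma). The strain of SSC1 had -1.37 and -0.96 with cdc102-1 at 30 and 28 degree, but 0.63 and 0.18 with CDC102, which placed its mean ratio at -0.38 ± 0.15. TIM44, the anchor of the motor at the channel, and the non-essential PAM17 had mean ratios of -0.26 and 0.08.

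In the carrier pathway, the mean over both tags of TIM12 lay below the median strain with cdc102-1 and above it with CDC102. TIM12 encodes the small TIM protein that sits on the TIM22 complex. Its strain had -2.01 and -1.01 with cdc102-1 at 30 and 28 degree, against 0.36 and 0.92 with CDC102. Only the second tag lay clearly above 0 with CDC102, at 0.73 and 1.87, while the first stood at 0.00 and -0.03. Of the 18 essential members, 2 lay above 0 on both CDC102 arrays, TIM12 and SSC1, where 39.3% of all strains did. In SSC1 too the first tag was below 0 with CDC102 at 28 degree, at -0.43. TIM12's mean ratio of -0.43 ± 0.12 did not pass (limma adjusted p 0.087). TIM22, which encodes the channel of this complex, had -0.00 and 0.63 with cdc102-1 at 30 and 28 degree, and -0.69 and 0.50 with CDC102. TIM54, a subunit exposed to the intermembrane space, had -1.76 and -1.03 with cdc102-1 at 30 and 28 degree, and -0.46 and -1.80 with CDC102 (mean ratio -1.26 ± 0.30, not past the test). TIM18, the non-essential membrane subunit, lay at 0.41 and 0.28 with cdc102-1 at 30 and 28 degree, and at 0.10 and 0.07 with CDC102.

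Of the soluble small TIM chaperones, TIM10 and TIM13 were measured. The essential TIM10 had -1.22 and -0.19 with cdc102-1 at 30 and 28 degree, and -1.76 and -0.27 with CDC102, and its mean ratio of -0.86 ± 0.12 passed (limma adjusted p 0.033). The non-essential TIM13 had -2.25 and 0.44 with cdc102-1 at 30 and 28 degree, and -0.04 and 0.17 with CDC102. A single array, that of cdc102-1 at 30 degree, gave TIM13 its low value.

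The SAM complex, the MIA pathway and the processing peptidase held the remaining 7 members that passed. SAM50, the barrel-inserting channel, had -1.12 and -0.74 with cdc102-1 at 30 and 28 degree, and -0.59 and -0.80 with CDC102 (mean ratio -0.81 ± 0.13, limma adjusted p 0.040). SAM35, the essential receptor-like subunit, had -1.40 and -2.12 with cdc102-1 at 30 and 28 degree, and -1.05 and -0.78 with CDC102 (mean ratio -1.34 ± 0.17, limma adjusted p 0.030). SAM37, the non-essential core subunit, had -0.99 and -1.23 with cdc102-1 at 30 and 28 degree, and -1.33 and -0.89 with CDC102 (mean ratio -1.11 ± 0.14, limma adjusted p 0.029). All 3 core subunits therefore gave low ratios, and SAM37 was the only non-essential import gene to pass. MDM10, which is also a subunit of the ERMES contact site between mitochondria and endoplasmic reticulum, had 1.68 and -0.36 with cdc102-1 at 30 and 28 degree, and -0.41 and -0.33 with CDC102.

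ERV1, the sulfhydryl oxidase that reoxidises Mia40, had -1.54 and -1.15 with cdc102-1 at 30 and 28 degree, and -1.07 and -1.10 with CDC102 (mean ratio -1.21 ± 0.12, limma adjusted p 0.024). MIA40 had -1.60 and -1.05 with cdc102-1 at 30 and 28 degree, and -0.76 and -0.58 with CDC102 (mean ratio -0.997 ± 0.11, limma adjusted p 0.027). Both MIA strains were low on every array. MAS1 had -1.40 and -0.96 with cdc102-1 at 30 and 28 degree, and -1.05 and -1.18 with CDC102 (mean ratio -1.15 ± 0.13, limma adjusted p 0.027). MAS2, the other subunit of the peptidase, had -0.35 and -2.32 with cdc102-1 at 30 and 28 degree, and -0.74 and -1.52 with CDC102 (mean ratio -1.23 ± 0.19, limma adjusted p 0.038). Ratios below 0 on all 4 arrays were found for 13 of the 18 essential members, all 3 background-dependent ones, and 2 of the 12 non-essential ones, TOM5 and SAM37. The share over all strains was 27.6%.

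**Figure D2:**
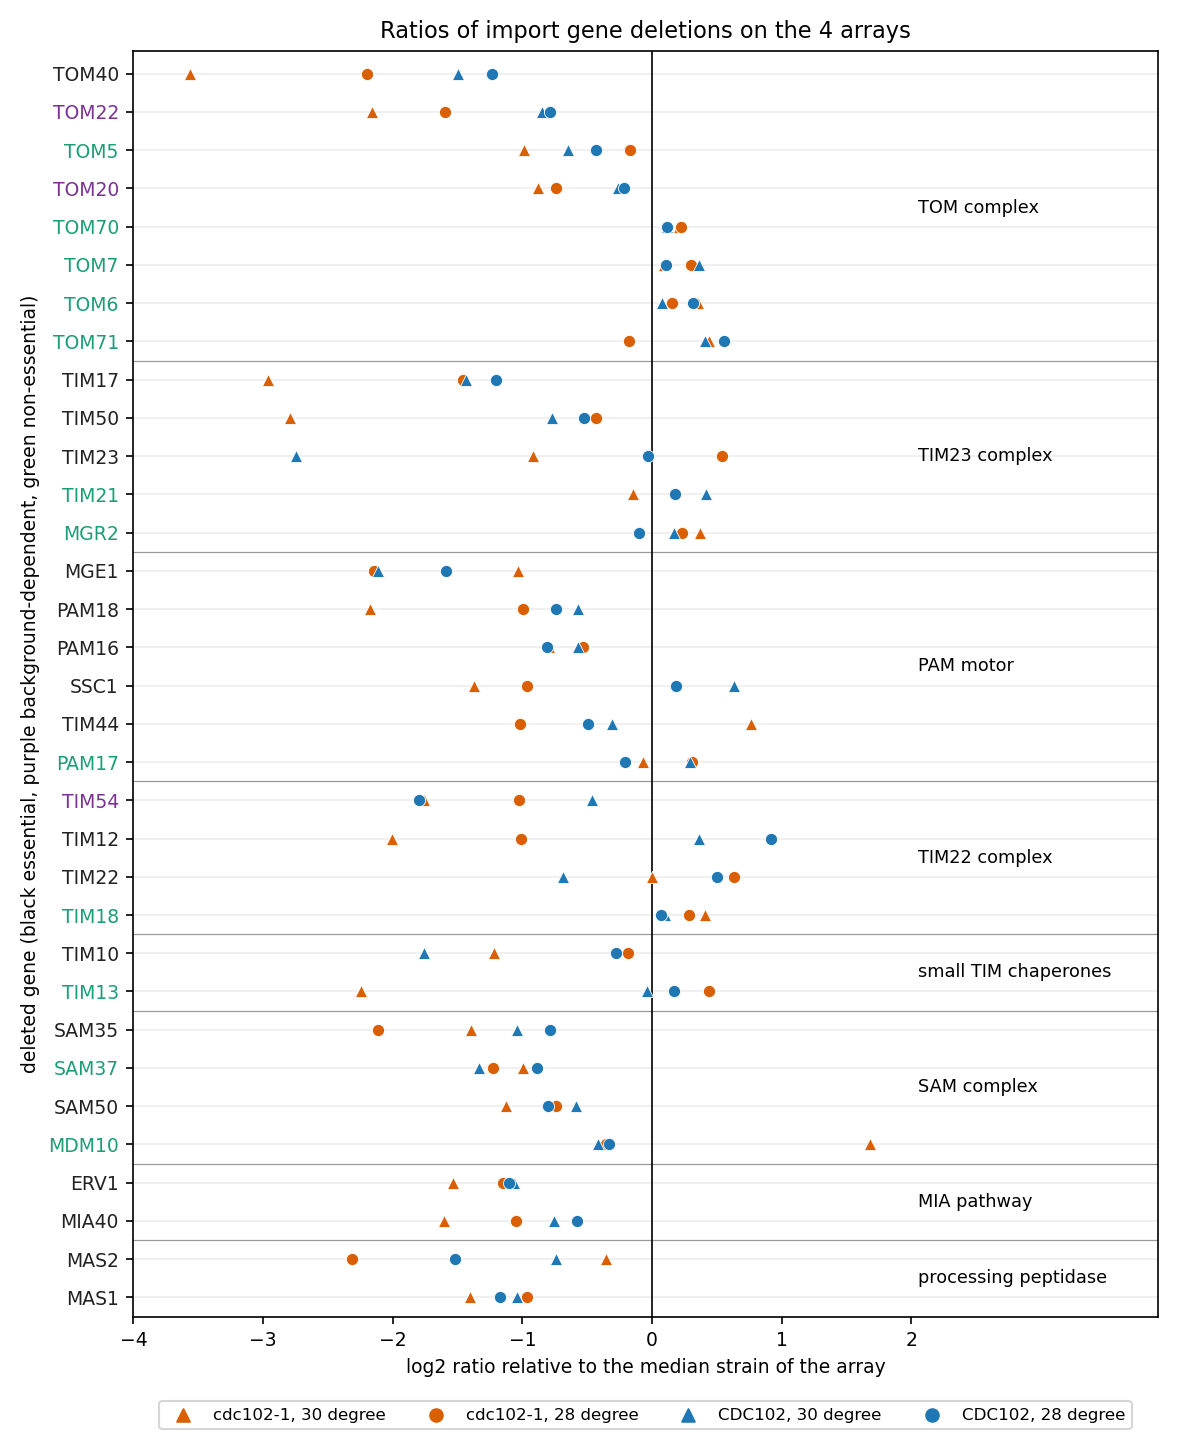
Log2 ratio relative to the median strain of the array for each import gene deletion, grouped by complex, with colour for the plasmid and shape for the temperature. TIM12 and SSC1 have both cdc102-1 points below 0 and both CDC102 points above it. Strains such as ERV1, SAM37 and TOM70 keep their 4 points on 1 side of 0. Points are means over both tags, and the first tags of TIM12 and SSC1 were below 0 with CDC102 at 28 degree.

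Setting cdc102-1 against CDC102 asks which import deletions give another ratio when the double mutants depend on the mutant GINS allele. No import gene passed limma's test of the plasmid term, and neither did any other strain (0%; smallest adjusted p 0.553), so the differences that follow are measured values and not called changes. At an unadjusted p under 0.05 there were 4 members, TIM12, SSC1, TOM40 and TOM22, all lower with cdc102-1, against 8.74% of all strains, 3.39% lower and 5.35% higher. The median plasmid difference was -0.25 over the essential members, 0.03 over the non-essential ones and 0.01 over all strains. In the essential comparison list outside mitochondria it was -0.03, with 15 strains below 0 and 14 above, and a range of -2.95 to 1.76. SRP1 and CCT4 of that list lay lower than any import gene, at -2.95 ± 1.58 and -2.56 ± 1.39. With cdc102-1 at 30 degree each of them was read from 1 tag, and at 28 degree alone they differed by -0.11 and -0.06. Among the essential members 8 were lower and 3 higher with cdc102-1 at both temperatures, and 7 had opposite signs. Of the non-essential members 0 were lower, 3 were higher and 9 had opposite signs. Over all strains 27.6% were lower at both temperatures, 30.4% were higher and 42% had opposite signs.

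TIM12 had the lowest plasmid difference of the import genes, -2.15 ± 0.23 (SE of the fit over 4 arrays), with -2.37 at 30 degree and -1.93 at 28 degree. That was the 14th lowest value of 5288 strains, and its unadjusted p of 0.0018 became 0.553 after adjustment. Both cdc102-1 values lay below both CDC102 values, by more than the gap between the temperatures within a plasmid. The share of all strains with such a separation was not counted. The tags differed in size and not in direction. Its first tag gave -2.29 and -0.78 with cdc102-1 at 30 and 28 degree, against 0.00 and -0.03 with CDC102. Its second tag gave -1.73 and -1.24 with cdc102-1 at 30 and 28 degree, against 0.73 and 1.87 with CDC102. Before centring and logarithm, these were ratios of 0.17 and 0.51 with cdc102-1 at 30 and 28 degree against 0.87 and 0.87 with CDC102 for the first tag, and of 0.25 and 0.37 against 1.44 and 3.23 for the second. The strains deleted for the genes on each side of TIM12 on chromosome II, YBR090C and PHO3, a phosphatase gene, had plasmid differences of -0.21 ± 0.26 and 0.13 ± 0.22; they were looked up after the value of TIM12 was known.

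SSC1, TOM40 and TOM22 followed TIM12. SSC1 differed by -1.57 ± 0.31 (-2.00 at 30 degree, -1.14 at 28 degree) and was with TIM12 the only member lower by at least 1 at both temperatures. Of all strains 0.681% were lower by that much at both temperatures and 1.32% higher, with 0 members among the higher. In SSC1 the first tag gave -0.76 and -0.06 with cdc102-1 at 30 and 28 degree against 0.60 and -0.43 with CDC102, and the second tag -1.98 and -1.87 against 0.66 and 0.79. At 28 degree its difference thus came from the second tag. The neighbours of SSC1 on chromosome X, VPS55 and TAH11, differed by 0.01 ± 0.21 and 0.35 ± 0.23; they too were looked up afterwards.

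For TOM40 the difference was -1.52 ± 0.36, made up of -2.07 at 30 degree and -0.97 at 28 degree. The first tag of TOM40 gave -3.57 and -2.99 with cdc102-1 at 30 and 28 degree against -1.80 and -0.64 with CDC102, and its second tag -3.57 and -1.41 against -1.19 and -1.83. At 28 degree the second tag was therefore not lower with cdc102-1. The difference of TOM22 was -1.06 ± 0.24, made up of -1.31 at 30 degree and -0.81 at 28 degree. In both tags it was lower with cdc102-1 at both temperatures, with -1.85 and -1.64 against -0.95 and -0.56 in the first tag, and -2.47 and -1.54 against -0.74 and -1.01 in the second, each at 30 and 28 degree. A further fit was limited to 3182 strains with tags less than 1 apart on each array. There the same difference of TOM22 passed (limma adjusted p 0.025), as did 109 of those strains in all. The 14 members in that fit did not include TIM12, SSC1 or TOM40, whose tags were up to 1.89, 1.81 and 1.58 apart. Of the 14, the 13 other than TOM22 did not pass. The prior degrees of freedom were 9.11 in that fit, against 2.30 in the main one.

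**Figure D3:**
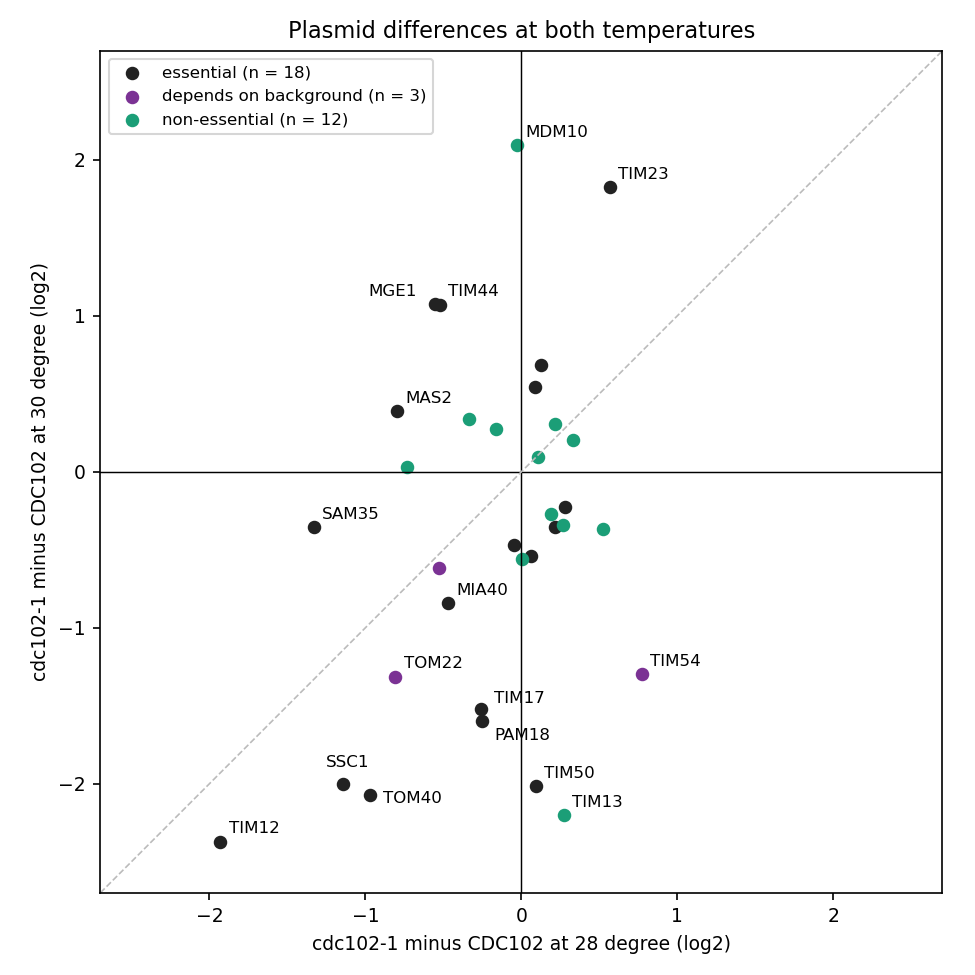
Difference between the plasmids, cdc102-1 minus CDC102 on the log2 scale, at 28 degree (horizontal) and at 30 degree (vertical) for the 33 import gene deletions, coloured by essentiality. TIM12 lies at the far lower left with SSC1 and TOM40, whereas TIM50, TIM13 and MDM10 are far from 0 at 30 degree alone; the dashed line marks equal differences.

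Among the other essential members, those lower with cdc102-1 at both temperatures were TIM17, PAM18, SAM35, MIA40 and ERV1. SAM35 differed by -0.84 ± 0.34, and at 28 degree alone by -1.33. Its first tag gave -1.47 and -2.99 with cdc102-1 at 30 and 28 degree against -1.23 and -0.71 with CDC102, and its second tag -1.33 and -1.24 against -0.86 and -0.85. MIA40 differed by -0.66 ± 0.22, and its tags were close to each other. In the first tag it had -1.91 and -1.20 with cdc102-1 at 30 and 28 degree against -0.71 and -0.69 with CDC102, and in the second tag -1.29 and -0.90 against -0.80 and -0.47. TIM17 differed by -0.89 ± 0.40 (-1.52 at 30 degree, -0.26 at 28 degree). The first tag of TIM17 gave -3.79 and -2.75 with cdc102-1 at 30 and 28 degree against -1.64 and -1.88 with CDC102, and its second tag -2.13 and -0.17 against -1.23 and -0.52. The TIM17 difference at 28 degree was thus present in the first tag and not in the second.

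In ERV1, which differed by -0.26 ± 0.23, the first tag gave -0.95 and -1.20 with cdc102-1 at 30 and 28 degree against -1.27 and -1.38 with CDC102, and the second tag -2.13 and -1.09 against -0.86 and -0.83. The tags of ERV1 pointed in opposite directions. The same held for PAM18, which differed by -0.93 ± 0.42. PAM18's first tag gave 0.45 and -0.34 with cdc102-1 at 30 and 28 degree against -1.64 and -1.52 with CDC102, and its second tag -4.79 and -1.64 against 0.49 and 0.04. TIM23 was the essential member with the highest difference, 1.20 ± 0.40, with 1.83 at 30 degree and 0.57 at 28 degree. Without the CDC102 array at 30 degree the sign turned, to -0.16, in a fit without the temperature term. Its second tag had no value on either array at 30 degree, and at 28 degree the tags gave 0.38 and 0.70 with cdc102-1, against -0.34 and 0.29 with CDC102. TIM22 and TIM10 were the other essential members higher at both temperatures, by 0.41 ± 0.25 and 0.32 ± 0.24.

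At 30 degree 9 members were lower by at least 1 with cdc102-1 and 4 were higher, against 7.92% and 7.77% of all strains. At 28 degree 3 were lower (TIM12, SSC1 and SAM35) and 0 were higher, against 2.84% and 3.93%. Several of the sizes at 30 degree rested on 1 tag. Of the 9, TOM40, SSC1 and TIM12 were lower by at least 1 in each tag. In TIM13 the first tag stood at -4.79 with cdc102-1 at 30 degree, a deposited ratio of 0.03, while its second tag stood at 0.30. On the other arrays both tags of TIM13 lay between -0.27 and 0.44. The second tag of TIM50 stood at -4.79 on the same array and that of PAM18 as well, each a deposited ratio of 0.03, and no other member tag was at or under a ratio of 0.05 on any array. Just above that limit on the same array were the first tag of TIM17, at a ratio of 0.06, and both tags of TOM40, at 0.07. The first tag of TIM50 gave -0.79 and -0.72 with cdc102-1 at 30 and 28 degree against -1.35 and -1.34 with CDC102, and its second tag -4.79 and -0.15 against -0.19 and 0.29. MDM10 was the opposite case, since its second tag reached 4.09 with cdc102-1 at 30 degree, a deposited ratio of 14.1, while its first tag stood at -0.73. All of these single-tag values came from the array with the widest spread over strains; the part of that spread in these results was not tested.

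Lower ratios with cdc102-1 in both tags at both temperatures were found for 5 of the 32 members with both tags on all arrays, TIM12, TOM20, TOM22, SAM35 and MIA40, against 13.9% of the strains so measured. TOM20 differed by -0.57 ± 0.20 (-0.62 at 30 degree, -0.53 at 28 degree) and had -0.88 and -0.74 with cdc102-1 at 30 and 28 degree, against -0.26 and -0.21 with CDC102. TIM18 was the only member higher in both tags at both temperatures, by 0.26 ± 0.20, against 16.3% of strains. A difference of at least 1 in each tag at each temperature was found for 0 members in either direction, and for 0.165% of strains in the lower and 0.516% in the higher direction.

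**Figure D4:**
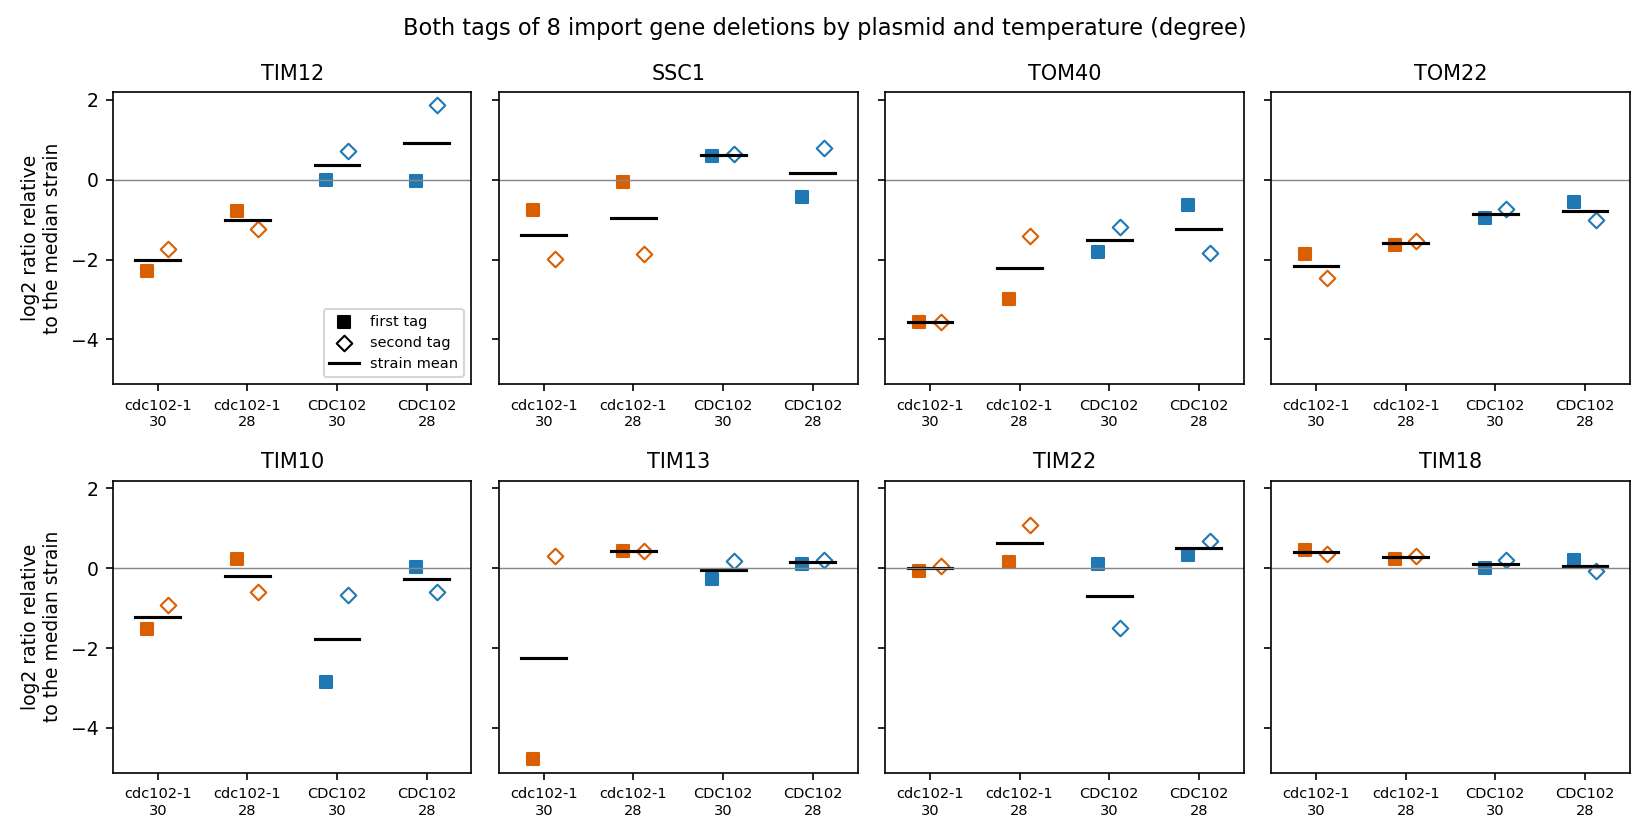
Log2 ratio relative to the median strain for the first tag (squares) and the second tag (diamonds) of 8 import gene deletions on the 4 arrays, with the strain mean as a bar. Both tags of TIM12 are lower with cdc102-1 than with CDC102 at each temperature, whereas the low TIM13 mean with cdc102-1 at 30 degree comes from its first tag alone.

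Within the import machinery, tags differed most in essential members. The median difference between both tags of a strain on an array was 0.80 in the essential members, against 0.29 in the non-essential ones and 0.34 over all strains, and 0.93 in the essential comparison list. On at least 1 array the tags differed by 1 or more in 15 of the 18 essential members and in 2 of the 12 non-essential ones, TIM13 and MDM10. They did so in 25 of the 29 genes of the essential comparison list and in 2011 of all 5288 strains. For 5 of the non-essential genes, TOM5, TOM6, TOM7, TIM18 and SAM37, the array held 6 spots per tag in place of 1. Their repeat spots had an SD between 0.020 and 0.53, with a median of 0.061, so that the tags of a strain could differ by more than its repeat spots did. Of the 13 members past the test of the mean ratio, 12 had a mean below 0 in each tag, PAM16 being the exception.

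The members low on all arrays differed in how even their tags were. The largest gap between the tags on an array was 0.79 in SAM50, 1.81 in MAS1 and 5.24 in PAM18. For SAM50 the first tag lay between -0.88 and -0.64 on the 4 arrays, and the second between -1.52 and -0.54. For SAM37 they lay between -1.45 and -1.13, and between -1.29 and -0.54. MAS1 ranged from -1.87 to -1.34 in the first tag and from -1.29 to -0.06 in the second. The tags of these 3 strains stayed below the median strain on every array. In MGE1 the first tag gave -1.98 and -1.93 with cdc102-1 at 30 and 28 degree against -1.69 and -0.30 with CDC102, and the second tag -0.09 and -2.36 against -2.54 and -2.88. In TIM54 the first tag gave -1.05 and -1.09 with cdc102-1 at 30 and 28 degree against -0.77 and -2.30 with CDC102, and the second tag -2.47 and -0.96 against -0.16 and -1.30.

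Setting 30 against 28 degree, over both plasmids, asks which import deletions give another ratio at the higher temperature. No member passed limma's test, as 0% of strains did, and 0.851 was the smallest adjusted p among members. By the unadjusted p, 5 members were under 0.05, all of them essential, against 5.58% of all strains. TIM23, TIM10, TIM22 and TIM12 were lower at 30 degree, against 3.95% of all strains, and MAS2 was higher, against 1.63%. TIM23 had the lowest temperature difference, -2.08 ± 0.40, with -1.46 with cdc102-1 and -2.71 with CDC102, but at 30 degree it was read from 1 tag.

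TIM10 differed by -1.26 ± 0.24, with -1.03 with cdc102-1 and -1.48 with CDC102. TIM10's first tag gave -1.52 at 30 degree and 0.22 at 28 degree with cdc102-1, and -2.86 and 0.04 with CDC102. Its second tag gave -0.91 at 30 degree and -0.59 at 28 degree with cdc102-1, and -0.66 and -0.59 with CDC102, so that most of the temperature difference of TIM10 lay in the first tag. TIM22 differed by -0.91 ± 0.25. In its first tag the values were -0.07 at 30 degree and 0.16 at 28 degree with cdc102-1, and 0.11 and 0.32 with CDC102. Its second tag gave 0.07 at 30 degree and 1.10 at 28 degree with cdc102-1, and -1.49 and 0.68 with CDC102. Both tags of TIM22 were lower at 30 degree with each plasmid, the second by more.

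TIM12 differed by -0.78 ± 0.23 between the temperatures, with -0.999 with cdc102-1 and -0.56 with CDC102. Without the cdc102-1 array at 30 degree or the CDC102 array at 28 degree the sign of this difference turned, to 0.41 and 0.19, in fits that had to drop the plasmid term. MAS2 was higher at 30 degree by 1.37 ± 0.38, with 1.96 with cdc102-1 and 0.78 with CDC102. MAS2's first tag gave -0.03 at 30 degree and -2.64 at 28 degree with cdc102-1, and -0.66 and -2.30 with CDC102. Its second tag gave -0.67 at 30 degree and -1.99 at 28 degree with cdc102-1, and -0.83 and -0.74 with CDC102. MAS1, which encodes the partner subunit, differed by -0.15 ± 0.25. TIM44 had a temperature difference of 0.98 ± 0.48, with 1.78 with cdc102-1 and 0.18 with CDC102. That value came from its second tag, at 2.09 and -1.87 with cdc102-1 at 30 and 28 degree and at 0.36 and -0.32 with CDC102, while its first tag gave -0.57 and -0.17 with cdc102-1 and -0.98 and -0.66 with CDC102.

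Position on the chromosome was looked at because deletions linked to the disrupted CDC102 locus are separated from it less often at meiosis. In the R64 gene table, 4 members lie on chromosome X with PSF2, namely TIM17, PAM16, SSC1 and TIM54, and TIM54 is the 1 member within 50 kb of it. The 43 measured strains within 50 kb of PSF2 had a median mean ratio of -0.02 and a median plasmid difference of -0.02, near those of all strains.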

How the data were processed

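Values are the authors' deposited log2 ratios of both dyes per spot. Per the labels, tags were amplified from genomic DNA, hybridised to a Hopkins TagArray, scanned on a GenePix 4000B and read with GenePix 5.1; for background correction and dye normalization, the method is not stated in those sources. Each ratio was a multiple of 0.01 (tolerance 0.1 percent). A stand-in ratio of 1000000 was left out, in 0 to 4 spots per array. Of 22575 spots, 18794 had 1 gene, 0 several and 3781 none; 5321 of 5325 strains matched the R64 RefSeq table.

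Spots were averaged per strain and arrays centred on the strain median (removing -0.27 and -0.19 for cdc102-1 at 30 and 28 degree, -0.20 and -0.17 for CDC102). Spots of a gene 10971 spot numbers apart were taken as its 2 tags; which is the uptag is not told. limma 3.58.1 (R 4.3.3) fitted plasmid and temperature as additive terms coded -0.5 and 0.5, the intercept being the mean ratio, over all strains, with Benjamini-Hochberg adjustment at 0.05, 1 residual and 2.30 prior degrees of freedom. Single temperatures have 1 array a side and no test. In simulated data of 5288 strains, 50 were shifted by each of 1, 2, 3 and 4, and the rest were not shifted. At the adjusted threshold, shifts of 2 and 4 were recovered in 6% and 82% of the 50 for the plasmid term. For temperature the shares were 0% and 86%, and for the mean ratio 84% and 96%. Recovery depends on how many strains are shifted, so these shares need not hold for the real data. Members and lists were chosen with earlier results of these data known. Array and tag values were given for TIM12, the small TIM genes and members with a difference or mean ratio of at least 0.75 and 1 sign in each pair of arrays, and also for TOM20 and MDM10, chosen after their values were seen; of related genes, the 4 with the largest plasmid difference. Alternatives were no centring, quantile normalization, medians over spots, each tag alone, tag-agreeing strains, the mean of tag means, values on at least 3 arrays, no second term, a robust prior, leaving out each array, and other sizes. Spot brightness and sequences were not used here.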

Additional observations from a re-analysis of the deposited data

Results flagged for a closer look

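In 3 import deletions the difference between the plasmids had opposite signs at the 2 temperatures, by at least 0.5 each way. In TIM44 the difference at 30 degree minus that at 28 degree was 1.60, with cdc102-1 minus CDC102 at 1.07 at 30 degree and -0.52 at 28 degree. In MGE1 it was 1.63, with 1.08 at 30 degree and -0.55 at 28 degree, and the same 1.63 separates its temperature differences, 1.11 with cdc102-1 and -0.52 with CDC102. In TIM54 it was -2.07, with -1.30 at 30 degree and 0.77 at 28 degree, and the temperature differences, -0.73 with cdc102-1 and 1.34 with CDC102, differ by the same -2.07. Each of these rests on 1 array per combination, and the difference was not tested.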

How the results depend on the processing

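The plasmid test called 0 strains in every setting but 1, also with any 1 array left out; with tag-agreeing strains it called 109 strains and 1 member. The count of members past the mean-ratio test was 3 with the second tag only (537 strains) and 6 with tag-agreeing strains, of 14 tested; leaving out 1 array in turn gave 0 to 17 members and 0 to 1203 strains. Members lower by a size at both temperatures numbered 5 at 0.5 (1 higher), 1 at 1.5 and 0 at 2. The shares over all strains at these sizes are not given here. At a size of 1 they were 0.681% lower and 1.32% higher. The essential members' median plasmid difference was -0.10 with the first tag only, -0.47 with the second and -0.41 at 30 degree alone. With tag-agreeing strains it was -0.45, but only MIA40 and SAM50 of the essential members, at -0.66 and -0.24, were in that fit. The non-essential median was -0.039, 0.13 and 0.15 with the first tag, the second tag and 28 degree alone. The essential median mean ratio ranged from -1.14 to -0.76 with 1 array left out, and the non-essential one was 0.043 with the first tag. Without centring the non-essential one was -0.049, a value that is not relative to the median strain. Signs turned for the plasmid difference of PAM18 with the first tag (1.64) and of TIM23 without the CDC102 array at 30 degree (-0.16, of a range of -0.16 to 2.55). They also turned for the temperature difference of TIM44 with the first tag (-0.36), of TOM40 without the cdc102-1 array at 30 degree (0.22, range -1.85 to 0.22) and of TIM12 (range -1.96 to 0.41), and for the mean ratio of PAM16 with the second tag (0.052). In each case the cause was not tested. TIM12's plasmid difference ranged from -2.65 to -1.65 over 3-array fits. TOM22 and MIA40 kept their mean-ratio call in all 10 settings with 4 arrays. The temperature term already pairs the arrays of both plasmids; without it the plasmid test also called 0 strains (462 at an unadjusted p under 0.05) and 0 members (5 unadjusted). The labels give no replicate numbers. Signal over background was not analysed here.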

Other observations

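Related mitochondrial genes outside the import list, 22 measured of 24 listed, included strains as low as the import genes. ZIM17, which encodes the zinc-finger partner that keeps Ssc1 soluble, had ratios of -3.71 and -3.14 with cdc102-1 at 30 and 28 degree, and of -1.64 and -1.99 with CDC102. Its mean ratio of -2.62 ± 0.16 passed (limma adjusted p 0.021), and its plasmid difference was -1.61 ± 0.32, which did not. That difference lay mostly in the first tag, at -3.89 and -1.77 at 30 and 28 degree, against -0.25 and -0.52 in the second. By the mean ratio 6 of the 22 were lower and 0 higher, against 15.7% lower and 4.48% higher over all strains, namely ZIM17, MIM1, which helps outer membrane proteins to insert, the matrix chaperonin genes HSP60 and HSP10, and MDM12 and MMM1, which encode subunits of ERMES. MDM12 had a plasmid difference of -0.89 ± 0.20, with -1.43 and -1.27 with cdc102-1 at 30 and 28 degree, and -0.45 and -0.47 with CDC102. POR1, the outer membrane porin, had -0.67 and -0.44 with cdc102-1 at 30 and 28 degree, and 0.97 and -0.45 with CDC102, a difference of -0.82 ± 0.49. The second tag of POR1 had no value with cdc102-1 at 30 degree. With CDC102 at 30 degree it stood at 1.92, against 0.02 in the first tag. IMP2, of the inner membrane peptidase, had -0.15 and -2.03 with cdc102-1 at 30 and 28 degree, and -2.03 and -1.71 with CDC102, a difference of 0.78 ± 0.64. The second tag of IMP2 had no value with cdc102-1 at 30 degree and lay between -4.13 and -3.30 on the other arrays. Its first tag lay between -0.15 and 0.07 on all 4, so the value of -0.15 and the difference rest on the missing second tag. The median plasmid difference of the 22 was -0.24, and 0 of them passed the adjusted plasmid test; at an unadjusted p under 0.05 there were 3, ZIM17, HSP10 and MDM12, all lower, against 3.39% lower and 8.74% in either direction over all strains.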
